A study of Mus musculus with 14 samples.

Results

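Triceps of male FLExDUX4 mice that had no running wheel was compared with triceps of male WT littermates that had none either. The groups were chosen by the genotype and treatment given for each mouse. They held 3 FLExDUX4 controls and 3 WT controls, which are 6 of the 14 mice profiled. The other 8 mice, 4 of each genotype, had a wheel for 6 weeks and enter here as runners, to place the control values and to set the spread of a fit over all 14 libraries. RNA 3′ ends of whole triceps were sequenced (QuantSeq, which counts fragments next to the polyadenylated end of a transcript). FLExDUX4 mice carry a conditional human DUX4 transgene that Cre recombinase turns into its expressed orientation and that is known to leak at a low level without Cre. The labels name no Cre driver, no inducing agent and no age for any of these groups. Nothing states whether the mice of a group were housed or processed apart.

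DUX4 is a transcription factor of the early embryo, and its return in skeletal muscle causes facioscapulohumeral muscular dystrophy. Mouse triceps consists mainly of fast fibres, and each fibre type is marked by its own myosin heavy chain: Myh4 in glycolytic IIb fibres, Myh1 in IIx, Myh2 in oxidative IIa and Myh7 in slow type I fibres. Oxidative and slow fibres hold more mitochondria, myoglobin and fat-burning enzymes, while IIb fibres rely on glycolysis.

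The promoter windows below give the sequence context of 2 genes called further on. Myh2 had the smallest p of any gene in the control libraries, and Myoz2 is shown for the MEF2 site in its window. Each window runs 5′ to 3′ on the gene's strand from 250 bases before to 50 after the start annotated by RefSeq on GRCm38.p6. Capitals mark E-boxes (CANNTG, read by myogenic factors such as MyoD) and MEF2 sites (CTA and TAG with 4 A or T bases between them, read by the MEF2 factors of muscle).
Myh2, chr11:67170777-67171076, plus strand: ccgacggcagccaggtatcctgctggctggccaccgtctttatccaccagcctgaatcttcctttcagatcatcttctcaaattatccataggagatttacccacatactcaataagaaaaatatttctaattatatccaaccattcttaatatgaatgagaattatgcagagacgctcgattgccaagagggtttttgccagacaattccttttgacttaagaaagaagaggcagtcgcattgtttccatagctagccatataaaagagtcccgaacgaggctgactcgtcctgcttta
Myoz2, chr3:123034938-123035237, minus strand: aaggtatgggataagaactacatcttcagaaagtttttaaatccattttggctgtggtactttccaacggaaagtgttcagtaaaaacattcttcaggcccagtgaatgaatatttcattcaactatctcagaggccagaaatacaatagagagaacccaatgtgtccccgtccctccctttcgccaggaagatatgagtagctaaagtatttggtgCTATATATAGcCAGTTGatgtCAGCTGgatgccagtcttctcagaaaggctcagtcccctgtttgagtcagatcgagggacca
The Myh2 window held neither motif, and the Myoz2 window held 2 E-boxes beside 1 MEF2 site without overlap. Of the 23 genes called below, 22 had a window, and the first was taken where a gene had several. For 2 of these the first window lay far from the GENCODE M21 gene start. The Myl2 window was at chr5:122092474-122092773 (gene start 122100951) and the Fhl1 window at chrX:56779433-56779732 (gene start 56731787). E-boxes lay in 16 of the 22, against 72.3% of all 32851 windows, and the MEF2 site in 1 of the 22, against 0.557%. With any 4 bases allowed between CTA and TAG, 2 of the 22 windows matched, against 3.69%. The NFAT core GGAAA, read by the factors that calcineurin activates in slow fibres, lay in 10 of the 22, against 61.3% of all windows. Both strands were searched, and these counts are descriptions without a test.

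The libraries held 3269357 to 6995811 reads on genes in the 6 controls, and 1 CPM (a count scaled to a common library size) stood for 3.32 to 7.77 reads. FLExDUX4 control 1 stood apart on the second principal component of log2 CPM (67.1, against -24.1 to 6.36 in the other 13 libraries) and had the fewest genes with a count, 13283. No row for DUX4 was among the genes analysed, so the transgene itself was not measured here. Of 11 mouse genes listed as responsive to DUX4, Sord and Ilvbl passed the filter on low counts. Neither was called (0.14 ± 0.20 and -0.25 ± 0.42, log2 difference ± SE), and 6 of the 11 had 0 counts in all controls.

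Genes of oxidative and slow fibres were higher in FLExDUX4 controls than in WT controls, and whether they were called depended on which libraries set the spread. A gene was called at an adjusted p under 0.05 over all genes tested. With all 14 libraries, edgeR called 0 of 11088 genes (0%), with 312 higher in FLExDUX4 controls (2.81%) and 242 lower (2.18%) at an unadjusted p under 0.05. DESeq2 on the same libraries called 3, all higher: Pim3, Chad and Myom3 (0.0271%). Limma-voom called 0. With the 6 control libraries alone, edgeR called 23 of 9593 genes, all higher in FLExDUX4 controls (0.24%). DESeq2 called 35 in those libraries (0.365%), 29 higher and 6 lower, among them all 23. Limma-voom called 18 (0.188%), and 17 genes were called by all 3 tools. Of the 23, limma-voom did not call Myl2, Myom3, Atp2a2, Gm15543, Tnnc1 and Ppara. The FLExDUX4 and WT controls did not overlap for any of the 23. Over all genes tested, 657 (5.93%) did not overlap with FLExDUX4 higher, and 607 (5.47%) with FLExDUX4 lower. With each mouse left out in turn, the 6-library fit called 15 to 27 genes, fewest without WT control 3. Of the 23, 15 were called every time, and Ldhb, Fabp3, Smtnl1, Homer2, Atp2a2, Gm15543, Tnnc1 and Ppara were not. Without FLExDUX4 control 1, the library that stood apart, the 6-library fit called 23, which were not all the same genes.

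The sizes of the differences were alike in both fits, which take them from the same 6 control libraries, and the errors were not. Over the 23 genes the median SE of the log2 difference was 0.248 with 6 libraries and 0.621 with 14, where over all genes tested it was 0.333 and 0.376. Calling genes in the 6-library fit favours those with a small SE there, and how much of this gap comes with the choice was not tested. Among the 8 runners these genes ranged widely, with a median of 6.34 times between the highest and lowest mouse. WT running 3 was the lowest WT runner for 20 of the 23, and FLExDUX4 running 4 the lowest FLExDUX4 runner for 23 of the 23. The genes thus moved together between mice and are not 23 separate observations.

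Oxidative myosins took a larger part of the myosin message in FLExDUX4 controls. Myh2 (chr11:67171027-67197517, GRCm38), whose promoter window is shown above, was at 79.5, 54.01 and 57.2 CPM in WT controls 1 to 3 and at 461, 457 and 593 CPM in FLExDUX4 controls 1 to 3. The lowest FLExDUX4 mouse was far above the highest WT mouse. The log2 difference was 2.99 ± 0.16 in the 6-library edgeR fit (adjusted p = 4.29e-11) and 2.98 ± 0.95 in the 14-library fit (adjusted p = 0.969). Myh1 was at 557, 338 and 418 CPM in WT controls and 1049, 1490 and 1078 CPM in FLExDUX4 controls, again without overlap (1.46 ± 0.19, 6-library adjusted p = 0.00426). Myh7 was at 0.631, 4.11 and 2.11 CPM against 4.66, 6.73 and 36.3 CPM. The groups did not overlap, but FLExDUX4 control 3 was far above its group mates, and Myh7 was called in neither fit (2.86 ± 1.68, adjusted p = 0.972 with 14 libraries and adjusted p = 0.898 with 6). Myh4 was at 37920, 34130 and 35590 CPM against 34640, 26490 and 31990 CPM, which overlapped (-0.21 ± 0.30, 14-library adjusted p = 0.999).

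As shares of the 4 adult myosins added up, Myh2 made up 0.174% ± 0.0282 (SD, n = 3) of WT control reads against 1.55% ± 0.248 (SD, n = 3) in FLExDUX4 controls. Myh1 made up 1.195% ± 0.234 against 3.78% ± 1.27, and Myh4 98.6% ± 0.256 against 94.6% ± 1.37. For Myh7 the shares were 0.00646% ± 0.00515 and 0.0481% ± 0.0519. Each of the 4 shares separated the groups, which gives an exact permutation p of 0.1, the smallest possible with 3 against 3 mice (adjusted p = 0.2 over 8 measures). For Myh7 the groups were barely apart, with 0.0119% (19 reads) in WT control 2 and 0.0129% (17 reads) in FLExDUX4 control 1. The 4 shares add up to the whole, so they are not 4 separate results. In whole muscle, a change in the number of cells or fibres of a type and a change in RNA per cell cannot be told apart.

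**Figure D1:**
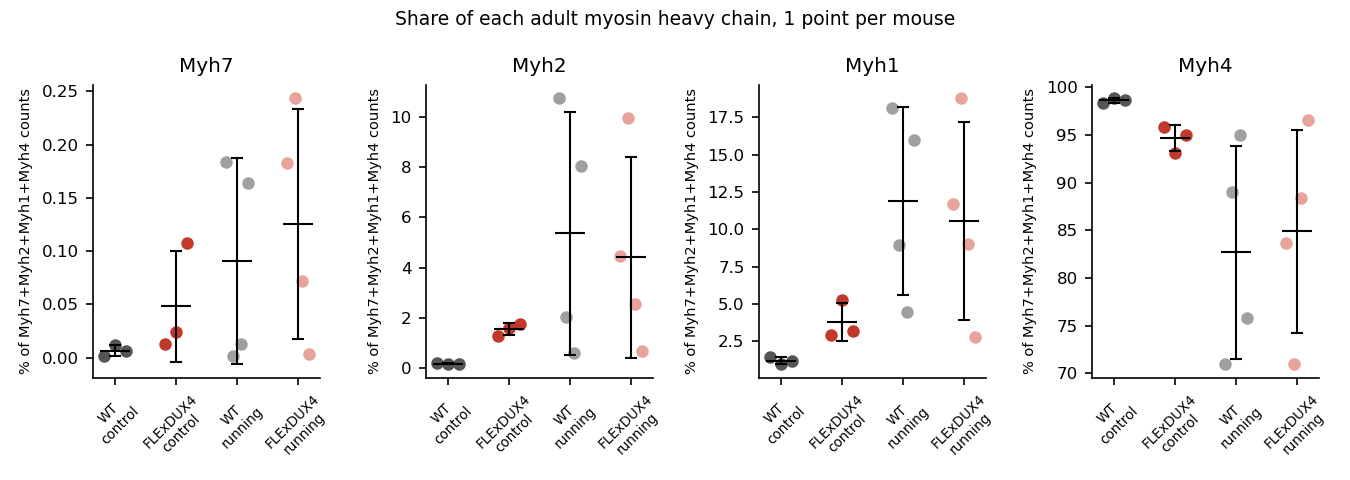
Share of each adult myosin heavy chain among the counts of Myh7, Myh2, Myh1 and Myh4 (%, y axis), 1 point per mouse in the 4 groups, with group means and SD. Without running, the FLExDUX4 mice lie above the WT mice for Myh7, Myh2 and Myh1 and below them for Myh4 (means 94.6% and 98.6%), while the runner groups overlap.

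All 16 tested genes of the slow contractile list, of 17 listed, lay above 0 with a median log2 difference of 2.15, where 50.3% of all tested genes lay above 0 with a median of 0.00231. Of the 16, 12 separated the groups with FLExDUX4 higher, as 5.93% of all tested genes did. With 14 libraries 6 were higher at an unadjusted p under 0.05 (2.81% of all tested genes). With 6 libraries 7 were called (0.24% of all tested genes). FLExDUX4 control 3 was the highest of its group for 13 of the 16, and without it the median was 1.62. Without FLExDUX4 control 1 the median was 2.51.

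Light chains and troponins of slow fibres gave some of the largest differences. Myl2, the slow regulatory light chain, was at 2.94, 2.16 and 0.602 CPM in WT controls and 31.6, 23.9 and 52.1 CPM in FLExDUX4 controls. All FLExDUX4 controls were above all WT controls, which had 26 reads together (4.16 ± 0.40, 6-library adjusted p = 5.21e-06). Tnnc1, slow troponin C, was at 1.05, 1.08 and 2.41 CPM against 6.04, 10.2 and 32.5 CPM, with 18 reads in the WT group and the highest value in FLExDUX4 control 3 (3.51 ± 0.64, adjusted p = 0.0322). Myl3, the slow essential light chain, was at 12.2, 7.99 and 4.51 CPM against 45.3, 61.1 and 141 CPM. It separated the groups. In the 6 libraries it was called by DESeq2 (adjusted p = 9.25e-05) and limma-voom (adjusted p = 0.00783) but not by edgeR (adjusted p = 0.408). Tpm3, slow tropomyosin, was at 12.2, 4.54 and 11.1 CPM against 22.8, 31.7 and 61.6 CPM. In the 6 libraries DESeq2 alone called it (adjusted p = 3.94e-05, against adjusted p = 0.147 by edgeR and adjusted p = 0.0542 by limma-voom). Tnnt1, slow troponin T, was at 8.41, 2.16 and 3.61 CPM against 13.7, 16.96 and 56.3 CPM without overlap and without a call (6-library edgeR adjusted p = 0.805). Tnni1, slow troponin I, was at 1.68, 1.73 and 0.602 CPM against 1.10, 6.98 and 10.7 CPM, and the groups overlapped.

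Genes of the M-band, Z-disc and thin filament showed the same order. Myom3, an M-band protein of slow and IIa fibres, was at 0.841, 1.30 and 0.301 CPM in WT controls and 10.7, 9.48 and 14.8 CPM in FLExDUX4 controls. The groups were far apart, although the WT side rests on 11 reads (3.75 ± 0.54, 6-library adjusted p = 0.000309). Myoz2, a calsarcin of slow fibres that binds calcineurin at the Z-disc, was at 3.37, 6.26 and 3.01 CPM against 19.8, 27.9 and 40.8 CPM (2.79 ± 0.35, adjusted p = 6.00e-05). Actn2, the α-actinin found in all fibre types, was at 70.04, 52.5 and 65.6 CPM against 133, 181 and 192 CPM (1.44 ± 0.16, adjusted p = 1.95e-05). Mybpc1, slow myosin binding protein C, was at 264, 267 and 218 CPM against 498, 533 and 563 CPM. Both of its groups were tight (1.09 ± 0.13, adjusted p = 1.95e-05). Lmod2, which nucleates thin filaments, rose by 2.05 ± 0.25 (adjusted p = 0.000118), and Ankrd2, a stretch-responsive protein of slow fibres, by 2.06 ± 0.31 (adjusted p = 0.000533). Fhl1, a LIM protein of the sarcomere, rose by 1.17 ± 0.15 (adjusted p = 9.40e-05), and Smtnl1, a smoothelin-like protein, by 1.04 ± 0.19 (adjusted p = 0.00938). Csrp3, the muscle LIM protein, was at 3.58, 6.70 and 2.71 CPM against 4.66, 11.2 and 16.3 CPM, which overlapped (1.32 ± 0.85, 14-library adjusted p = 0.972).

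**Figure D2:**
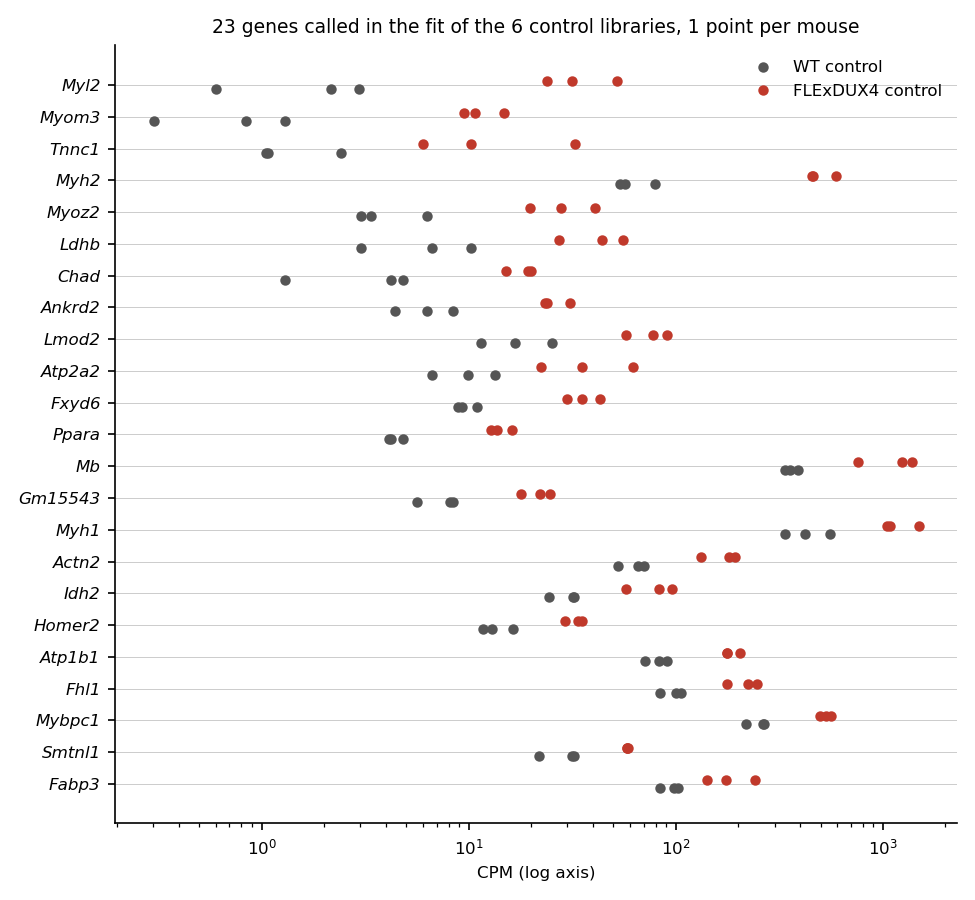
CPM (x axis, log scale) of the 23 genes called by edgeR in the 6 control libraries, 1 point per mouse, coloured by group. For every gene the 3 FLExDUX4 points lie to the right of the 3 WT points, with log2 differences from 0.97 (Fabp3) to 4.16 (Myl2).

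Calcium and ion transport genes were also called. Atp2a2, the calcium pump of slow fibre sarcoplasmic reticulum, was at 9.89, 13.4 and 6.62 CPM in WT controls and 35.4, 22.4 and 62.3 CPM in FLExDUX4 controls (2.003 ± 0.35, 6-library adjusted p = 0.0172). The groups were separate, with the highest value in FLExDUX4 control 3. Atp1b1, the β1 subunit of the sodium pump, was at 82.7, 70.9 and 91.2 CPM against 176, 176 and 204 CPM (1.19 ± 0.15, adjusted p = 4.97e-05). Fxyd6, a regulator of that pump, was at 8.83, 11.02 and 9.33 CPM against 35.1, 42.9 and 29.97 CPM (1.88 ± 0.26, adjusted p = 0.000178). Homer2, a scaffold of calcium signalling, rose by 1.26 ± 0.25 (adjusted p = 0.0157). Casq2, slow calsequestrin, had the smallest difference of the slow fibre list, and its groups overlapped (0.45 ± 0.55, 14-library adjusted p = 0.999).

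Fast fibre genes differed less, most of them downward. Of 19 fast contractile genes 15 lay below 0, with a median of -0.16. Of the 19, 7 separated the groups with FLExDUX4 lower, as 5.47% of all tested genes did, but 0 of the 15 were called in either edgeR fit. Myl1, the fast essential light chain, was at 10020, 10630 and 11300 CPM in WT controls and 8872, 8562 and 8473 CPM in FLExDUX4 controls, which did not overlap (-0.30 ± 0.20, 14-library adjusted p = 0.972). Myh1, given above, was the called member of this list. When library sizes were set by the spike-ins the median over all genes became 0.308, and the fast fibre median became 0.14 and the difference of Myl1 0.0077, both below that shift. Genes of developing and regenerating fibres had a median of -0.39 over 9 tested genes, with 0 called. Ncam1, the adhesion molecule of denervated and regenerating fibres, was at 10.1, 9.51 and 7.82 CPM against 3.02, 7.73 and 3.73 CPM (-0.94 ± 0.49, adjusted p = 0.972).

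Among genes of oxygen and fat use, Mb, Fabp3 and Ppara were called in the 6-library fit, all higher in FLExDUX4 controls. Mb, myoglobin, was at 356, 389 and 338 CPM in WT controls and 762, 1387 and 1235 CPM in FLExDUX4 controls. The groups were well apart (1.65 ± 0.18, 6-library adjusted p = 0.000742). Fabp3, which carries fatty acids within the fibre, was at 84.1, 98.1 and 103 CPM against 141, 241 and 175 CPM (0.97 ± 0.17, adjusted p = 0.00507). Ppara, the nuclear receptor that drives fat oxidation genes, was at 4.21, 4.11 and 4.81 CPM against 12.9, 16.2 and 13.8 CPM. Its groups were narrow and separate (1.71 ± 0.36, adjusted p = 0.0359), and its p with 14 libraries was the smallest of the 23 genes (unadjusted p = 0.000110, adjusted p = 0.407). In the 6 libraries limma-voom did not call Ppara (adjusted p = 0.151). With each mouse left out in turn, edgeR did not call it every time. Ppargc1a, the PGC-1α coactivator of mitochondrial genes, was at 49.2, 49.9 and 45.4 CPM against 55.1, 78.5 and 82.5 CPM, separate but not called (0.58 ± 0.20, adjusted p = 0.969).

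Of 28 tested genes of fatty acid uptake and oxidation, 26 lay above 0 with a median of 0.38. Of the 28, 14 separated the groups with FLExDUX4 higher (5.93% of all tested genes). Fabp3 alone was called in the 6-library fit. Plin5, the lipid droplet coat of oxidative muscle, was at 1.26, 3.02 and 2.11 CPM against 7.13, 6.73 and 7.46 CPM (1.73 ± 0.52, unadjusted p = 0.00202, adjusted p = 0.969, 14 libraries). Hadhb and Hadha encode the subunits of the mitochondrial trifunctional protein, which runs the later steps of fat oxidation. Hadhb was at 46.5, 42.6 and 57.8 CPM against 72.7, 79.3 and 73.1 CPM, without overlap (0.62 ± 0.23, adjusted p = 0.969). Hadha differed by 0.50 ± 0.24, also without overlap or call. Of 81 respiratory chain and ATP synthase subunits 64 lay above 0, with a median of 0.12. Of the 81, 19 separated the groups with FLExDUX4 higher (5.93% of all tested genes). Reads from the mitochondrial genome made up 24.04% ± 2.82 (SD, n = 3) in WT controls against 26.2% ± 4.88 (SD, n = 3) in FLExDUX4 controls (exact permutation p = 0.6, two-sided). Idh2, mitochondrial isocitrate dehydrogenase, was at 24.4, 31.97 and 32.2 CPM against 57.3, 96.2 and 83.2 CPM (1.43 ± 0.20, 6-library adjusted p = 0.000254), and was the called gene among 25 of the tricarboxylic acid cycle, whose median was 0.08.

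Glycolysis genes showed the reverse order with small differences. Of 27 tested genes of glycolysis and glycogen, 22 lay below 0 with a median of -0.24. Of the 27, 11 separated the groups with FLExDUX4 lower (5.47% of all tested genes). Ldha, which makes lactate from pyruvate, was at 1115, 1142 and 1201 CPM in WT controls and 878, 866 and 869.6 CPM in FLExDUX4 controls. The groups were tight and separate, and the gene was not called (-0.40 ± 0.20, 14-library adjusted p = 0.972). Gapdh was at 251, 194 and 238 CPM against 154, 139 and 193 CPM (-0.49 ± 0.17, unadjusted p = 0.00711, adjusted p = 0.969). Eno3, the muscle enolase, differed by -0.35 ± 0.16, without overlap or call. Tigar, which lowers glycolytic flux, was lower as well (-0.47 ± 0.19, adjusted p = 0.969). Ldhb, the dehydrogenase form of oxidative tissue, went the other way at 10.3, 3.02 and 6.62 CPM against 27.2, 55.6 and 44.1 CPM. It did not overlap and was called (2.67 ± 0.36, 6-library adjusted p = 0.00104). With spike-in library sizes the median of the list was 0.07, below the shift of all genes.

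**Figure D3:**
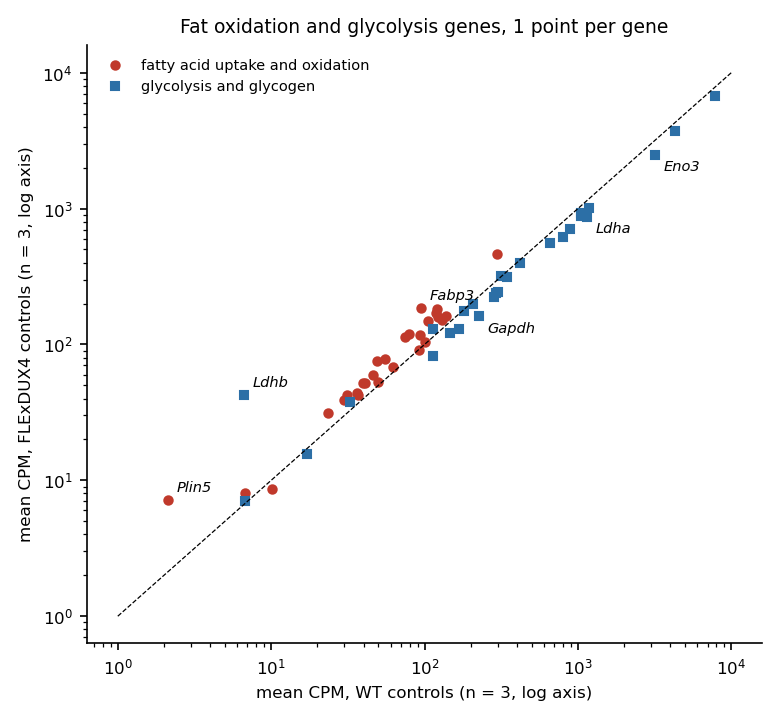
Mean CPM in FLExDUX4 controls (y axis, n = 3) against WT controls (x axis, n = 3), both on log scales, for the 28 tested genes of fatty acid uptake and oxidation and the 27 of glycolysis and glycogen, with equality as a dashed line. Of the fat genes 26 have a log2 difference above 0, and of the glycolysis genes 22 have one below 0, with Ldhb far above the line.

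Most tendon markers lay higher in FLExDUX4 controls, and 1 was called. Chad, chondroadherin, a leucine-rich protein of cartilage and tendon, was called in the 6 libraries (2.41 ± 0.40, adjusted p = 0.00245) and by DESeq2 in all 14 (adjusted p = 0.0113). Its lowest FLExDUX4 value was 15.2 CPM and its highest WT value 4.84 CPM. Of 10 tested tendon markers 8 lay above and 2 below 0, with a median of 1.09. Of the 10, 7 separated the groups with FLExDUX4 higher (5.93% of all tested genes). Their summed level was 78.5 to 117 CPM in WT controls and 138 to 247 CPM in FLExDUX4 controls, and without FLExDUX4 control 1 the median was 0.94. Fmod, fibromodulin, which shapes collagen fibrils, was at 33.02, 16.2 and 18.6 CPM against 105, 35.7 and 55.3 CPM. Its highest value was in FLExDUX4 control 1, the library that stood apart (1.51 ± 0.60, 14-library adjusted p = 0.969). Scx, the transcription factor of tendon cells, was at 6.10, 5.40 and 5.12 CPM against 3.02, 3.99 and 7.46 CPM, which overlapped (-0.17 ± 0.56, adjusted p = 0.999). The 33 tested fibrosis and collagen genes had a median of -0.04. The part of tendon in the sampled tissue was not tested.

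No marker of the following cell types was called in either edgeR fit. Endothelial markers lay above 0 for 15 of 19 with a median of 0.43, and their sums of 337 to 412 CPM in WT controls and 383 to 478 CPM in FLExDUX4 controls overlapped. Schwann cell and nerve markers lay above 0 for 6 of 7 with a median of 0.54, and their sums overlapped (40.2 to 47.7 CPM against 46.7 to 72.4 CPM). Red blood cell markers, also above 0 for 6 of 7, had a median of 0.37 and sums that overlapped. Smooth muscle and pericyte markers had a median of 0.25 over 14 genes, and their sums did not overlap (964 to 1110 CPM against 1120 to 1260 CPM). Des, a gene of fibres too, made up most of each sum, at 655, 757 and 800 CPM against 735, 818 and 914 CPM. Des itself overlapped between the groups, and for this list the sums without Des were not taken. Of the 14 tested genes 9 lay above 0 and 5 below. Of the 14, 3 separated the groups with FLExDUX4 higher (5.93% of all tested genes) and 1 with FLExDUX4 lower (5.47%). Acta2, smooth muscle actin, separated the groups without a call (0.999 ± 0.27, 14-library adjusted p = 0.730). Macrophage and myeloid markers summed to 156 to 223 CPM against 119 to 243 CPM. Cd68, a macrophage marker, was at 1.89, 3.89 and 2.41 CPM against 1.10, 0.997 and 0.900 CPM (-1.44 ± 0.93, adjusted p = 0.972). Pax7, which marks muscle stem cells, overlapped (0.89 ± 0.71), as did the sums of the satellite cell markers, most of which was Des, a gene of fibres too. Without Des the sums were 76.1, 76.7 and 76.1 CPM in WT controls against 96.03, 89.3 and 83.5 CPM, which did not overlap. The single markers were mixed. Of the 11 tested, Des among them, 7 lay above 0 and 4 below, and 0 separated the groups with FLExDUX4 higher and 1 with FLExDUX4 lower. A difference in the number of satellite cells was not tested. Muscle spindles carry slow myosins in their own small fibres, and their markers summed to 2.11 to 3.79 CPM in WT controls and 0 to 2.06 CPM in FLExDUX4 controls. With 1 of the 6 spindle markers tested and sums this low, their part in the slow fibre differences was not tested.

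**Figure D4:**
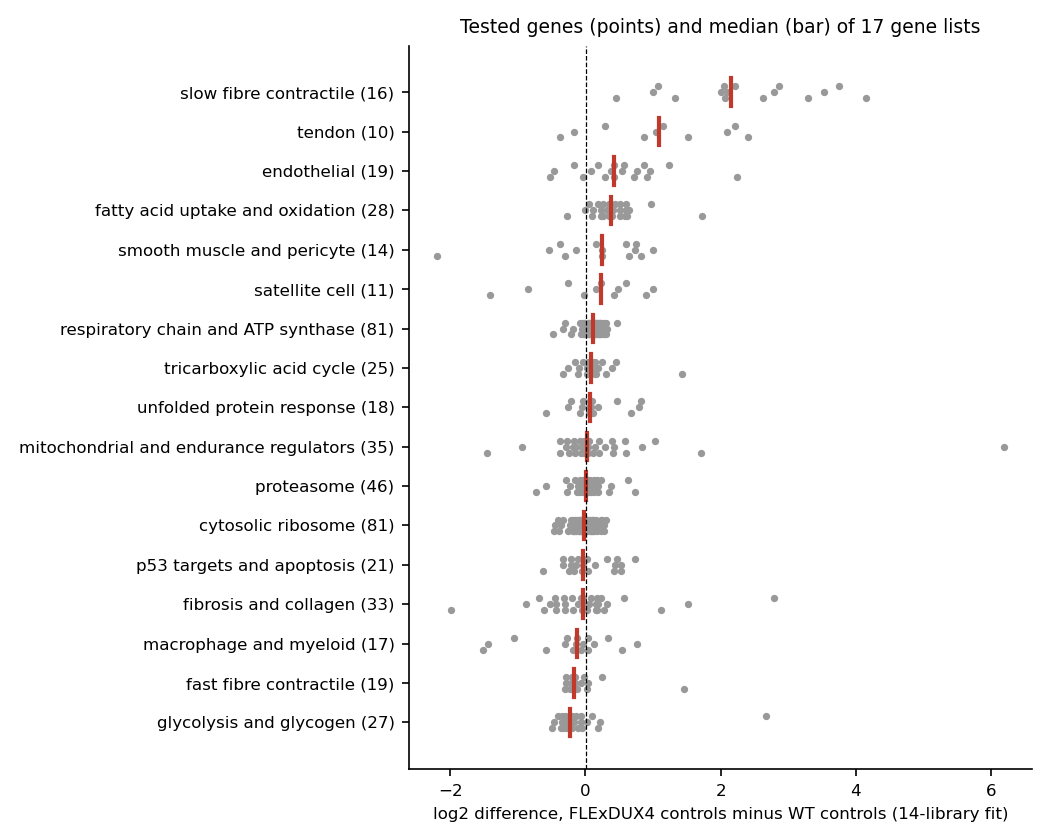
Log2 difference between FLExDUX4 and WT controls with 14 libraries (x axis) for the tested genes (points) and their median (bar) in 17 of the gene lists. Among the lists plotted, the slow fibre (2.15) and tendon (1.09) medians lie furthest right, and the fast fibre (-0.16) and glycolysis (-0.24) medians furthest left.

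Lists of stress and damage had medians near 0. Medians were -0.04 for 21 genes of p53 targets and apoptosis, 0.07 for 18 of the unfolded protein response, 0.01 for 46 proteasome subunits and -0.02 for 81 cytosolic ribosomal proteins. Cdkn1a, a p53 target that halts the cell cycle, was at 11.6, 15.8 and 8.72 CPM in WT controls and 15.1, 28.2 and 10.03 CPM in FLExDUX4 controls, which overlapped (0.53 ± 0.40, 14-library adjusted p = 0.976). Of 23 heat shock and chaperone genes 11 lay above and 12 below 0. In the 14-library edgeR fit 4 of the 23 were higher at an unadjusted p under 0.05 (2.81% of all tested genes) and 0 lower. Of the 23, 4 separated the groups with FLExDUX4 higher (5.93% of all tested genes) and 0 with FLExDUX4 lower. Hspb7, a chaperone of striated muscle, was at 12.8, 20.96 and 15.3 CPM against 23.1, 39.4 and 41.9 CPM, separate but not called (1.09 ± 0.41, adjusted p = 0.969). Of 20 tested genes of the FSHD region and of chromatin silencing, 10 lay above and 10 below 0. Eed, a Polycomb subunit, was at 32.2, 23.6 and 33.1 CPM against 16.5, 21.9 and 16.5 CPM (-0.70 ± 0.24, adjusted p = 0.969). The 23 early embryo genes of the Dux network in the table had 0 counts in all controls.

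Pim3, a serine/threonine kinase induced by cytokines, had the smallest p of the 14-library fit. It was at 24.6, 18.1 and 15.7 CPM in WT controls and 39.2, 71.6 and 33.5 CPM in FLExDUX4 controls. The groups did not overlap, and FLExDUX4 control 2 was the highest. Its difference was 1.29 ± 0.26 (unadjusted p = 3.13e-05, adjusted p = 0.347 by edgeR and adjusted p = 0.0362 by DESeq2 with 14 libraries), and with 6 libraries edgeR gave adjusted p = 0.0526. Pim3 was the called gene of this pair in the authors' deposited table, where its log2 fold change was 1.05. Fold changes there were also smaller than here for Myh2 (0.526), Myom3 (0.788) and Chad (0.786), so the sizes are not on a like scale. The reason was not tested. Pdlim1, a PDZ-LIM protein of stress fibres, was at 3.58, 2.38 and 6.92 CPM against 13.7, 15.96 and 11.6 CPM (1.71 ± 0.38, adjusted p = 0.382). Also among the 12 smallest p were Phldb1, a protein of the cell cortex (1.33 ± 0.33), Dach2, a transcription cofactor of muscle (2.17 ± 0.56), and Fgf1, a growth factor (1.84 ± 0.49). Phldb1 was tight in both groups, at 6.94, 5.62 and 5.72 CPM against 15.6, 14.7 and 15.8 CPM. These 3 were not called by edgeR in either fit. Ciart, a repressor of the circadian clock, was at 1.26, 0.864 and 2.11 CPM against 6.31, 8.98 and 4.37 CPM (2.22 ± 1.02, adjusted p = 0.969), while the 20 tested clock genes had a median of -0.02. Gm15543, annotated as antisense and overlapping Casc1, was called in the 6 libraries (1.55 ± 0.31, adjusted p = 0.0172). Casc1 had 2, 0 and 0 reads in WT controls against 0, 1 and 12, and the strand setting of the counting is not given in the sources used here.

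Lower genes were called by DESeq2 alone among the 3 tools in the 6 libraries. They were Mstn, Cib2, Amd1, Tmem132b, Gm26740 and F830016B08Rik. Mstn, myostatin, which restrains muscle growth, was at 114, 76.5 and 93.9 CPM in WT controls and 54.05, 58.1 and 58.5 CPM in FLExDUX4 controls. The groups did not overlap (-0.73 ± 0.17, edgeR adjusted p = 0.0857, DESeq2 adjusted p = 0.0335). Cib2, a calcium- and integrin-binding protein, was at 105, 98.1 and 118 CPM against 51.03, 64.3 and 78.7 CPM (-0.71 ± 0.17, DESeq2 adjusted p = 0.0478). Amd1, the decarboxylase that feeds polyamine synthesis, was at 559.9, 376 and 567 CPM against 316, 214 and 344 CPM (-0.78 ± 0.19, DESeq2 adjusted p = 0.0175). Tmem132b, a membrane protein, was at 11.6, 14.7 and 16.6 CPM against 6.86, 3.99 and 4.50 CPM (-1.48 ± 0.37, DESeq2 adjusted p = 0.0493). All 4 separated the groups, and edgeR called none of them. Crlf2, a cytokine receptor, had one of the lowest 14-library differences at 7.99, 6.26 and 4.21 CPM against 2.19, 1.75 and 0.772 CPM (-2.04 ± 0.59, adjusted p = 0.889). Cd28, a T cell costimulator, and Crtc2, a coactivator of CREB, differed by -2.05 ± 0.80 and -1.70 ± 0.55, and FLExDUX4 control 1 had 0 reads of either.

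In runners, which share no mouse with the controls, the 23 genes showed no common direction. There 9 of the 23 lay above 0, with a median log2 difference between FLExDUX4 and WT of -0.11 (range -0.60 to 0.70), and 0 had an unadjusted p under 0.05, as 3.16% of all tested genes did. The runner groups overlapped for all 23. Myh2 was at 2349, 643, 149 and 1337 CPM in WT runners and 1096, 1646, 755 and 186 CPM in FLExDUX4 runners (-0.28 ± 0.75). Both groups spanned a wide range. For 20 of the 23 genes the FLExDUX4 control mean was below the WT runner mean, and for 20 it was below the FLExDUX4 runner mean. A test of whether the genotype difference changed between controls and runners called 0 of 11088 genes (0%), with 537 at an unadjusted p under 0.05 (4.84%), and DESeq2 and limma-voom called 0 as well. Of the 23, 10 were among the 537, a count that rests on the same control mice as the calls. For Pim3 the change was 1.75 ± 0.35 (unadjusted p = 1.80e-05, adjusted p = 0.199), with a difference of -0.46 ± 0.22 in runners.

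**Figure D5:**
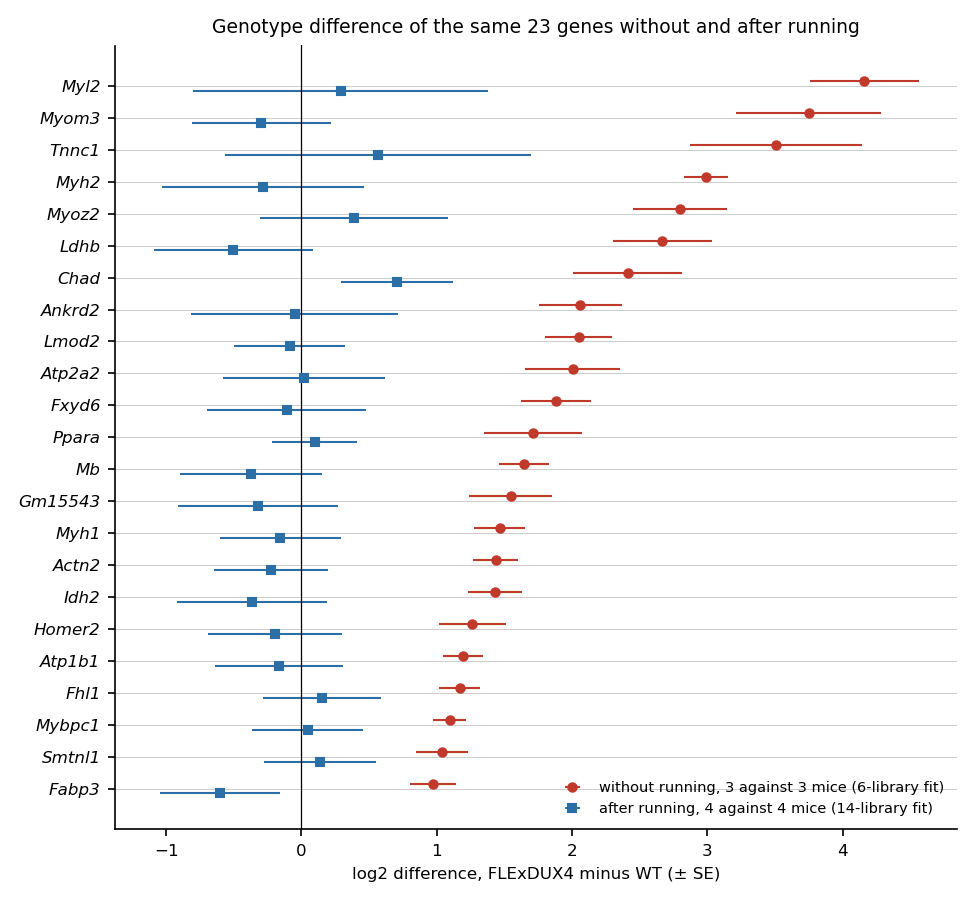
Log2 difference between FLExDUX4 and WT (x axis, points with SE) of the 23 genes without running in the 6-library fit (circles, 3 against 3 mice) and after running in the 14-library fit (squares, 4 against 4 mice). The circles lie between 0.97 and 4.16, and the squares on both sides of 0, between -0.60 and 0.70.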

How the data were processed

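The authors deposited raw read counts per gene and spike-in for each mouse, with no normalization. Beside them they deposited, per the file headers, log2 fold changes, a standard error and a test statistic (a score) and p-values for each pair of groups. Per the submitters' processing notes, cutadapt 1.16, STAR 2.5.3a, featureCounts 1.6.2 and DESeq2 were used, with GRCm38 among the builds. The treatment of strand and of reads with several alignments is not given in the sources used here. The 99 spike-in rows were set aside, which left 52550 genes, and gene positions come from GENCODE M21.

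Genes were tested with edgeR 4.0.16 in R 4.3.3, by a robust quasi-likelihood fit with TMM factors, a minimum count of 10 in filterByExpr and 1 mean per group, over all 14 libraries and again over the 6 controls. SE is the log2 difference divided by the root of F, and adjusted p is Benjamini-Hochberg over all tested genes. DESeq2 1.42.0, limma-voom (limma 3.58.1) and sva 3.50.0 were alternatives, and the scripts were tested on simulated data. Counts carry no molecular identifiers. Per-mouse shares were compared by two-sided exact permutation tests.

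The groups, lists and tests were chosen with earlier results of these data known. Genes named by rule were those called with 14 libraries or by the authors, the 12 smallest p of each edgeR fit, the 10 highest and lowest separated genes, 3 of each list and set markers. Other named genes were chosen after their values were seen. P-values measure the spread between these samples, which may be partly technical.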

Additional observations from a re-analysis of the deposited data

Results flagged for a closer look

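Lmod2, which nucleates thin filaments, had 1 low mouse among the 4 WT runners, which were at 99.9, 108, 37.1 and 112 CPM. The low mouse is WT running 3. Its gap to the nearest mouse was 0.841 of the group's range, above the limit of 0.829 for 4 samples. Chance gives about 1 such value in 20 groups, and 60 groups were examined.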

How the results depend on the processing

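Against 0 calls with 14 libraries, DESeq2 called 3 genes, spike-in library sizes 2, no low-count filter 12, no robust estimate 2, 1 surrogate variable 3, and the 6 control libraries 23 by edgeR, 35 by DESeq2 and 18 by limma-voom. With 1 mouse left out there were 0 to 1 calls, the 1 without FLExDUX4 control 3. Against 23 calls with 6 libraries, DESeq2 called 35, spike-in sizes 62 and no filter 52, and 15 to 27 were called with 1 mouse left out, where without WT control 3 there were 15. For the change between controls and runners, 0 calls became 1 with spike-in sizes, 11 with no filter, 2 with 1 surrogate variable and 0 to 1 with 1 mouse left out, the 1 without FLExDUX4 control 3. Of these, the alternatives to the 6-library fit other than DESeq2 and limma-voom, and spike-in sizes and the surrogate variable for the change, were chosen after seeing the data. Shares of the 4 myosins kept their direction under each alternative tried.

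The slow fibre level used as a covariate was the mean log2 CPM of the slow contractile list. With it the log2 difference became -1.44 for Myh7, -0.197 for Myl3, -0.242 for Tnnc1, -1.16 for Tnnt1, -1.563 for Tnni1, -0.198 for Tpm3, -0.143 for Csrp3 and -0.618 for Casq2. These genes are members of that list, so adjusting for their own mean lowers them by construction and tests nothing. Outside the list it became 0.394 for Myh4, 0.0345 for Myl1 and -0.00703 for Col1a1. Spike-in sizes gave 0.0905 for Myh4, 0.120 (0.123 with 6 libraries) for Scx, 0.0534 (0.0533) for Ilvbl and 0.00773 for Myl1 (0.007727 with 6 libraries). With 1 surrogate variable Myh4 was at 0.212 and Casq2 at -0.329. With 1 mouse left out, Scx ran from -0.656 to 0.0709 and Col1a1 from -0.0132 to 0.475, both changing sign without FLExDUX4 control 1 (0.0716 and -0.0179 with 6 libraries). Under these settings none of these differences was called by edgeR. In the 6 libraries Tnnc1 was called by edgeR and DESeq2, Myl3 by DESeq2 and limma-voom, and Tpm3 by DESeq2 alone. For genes outside the slow list the cause of the sign changes was not tested. The sums without Des and the A or T core of the MEF2 site were chosen after seeing the data. No paired analysis was possible because the labels carry mouse tags and no numbers shared between groups. Depth limits Myom3, Tnnc1 and Myl2, with 11 to 26 reads in WT controls together. It also limits Myh7, with 3, 19 and 7 reads in WT controls 1 to 3.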
